A study of Mus musculus with 16 samples.

Results

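The longest genes that liver transcribes at a measurable level are described here: protein-coding genes on the autosomes or X whose annotated exons run over more than 400 kb from the first start to the last end and whose level was at least 0.5 CPM (the usual depth-scaled count, here from the library total) as a mean over the 16 libraries. The deposited table holds 54752 genes, and 161 of them met the rule. Of the 341 protein-coding genes longer than 400 kb at any level, 180 were under 0.5 CPM, and 12486 protein-coding genes of any length reached that level. The levels that chose the members are means over all 16 livers, so no diet entered the rule, and differences between diets could be tested. Near the level limit a single high liver can still bring a gene in. Bnc2, at a mean of 0.615 CPM, had 136 counts in control 3 and 0 to 78 in each of the other livers.

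Libraries were made from the liver of male mice with the Ercc1Δ/− genotype on an F1 hybrid C57BL6J/FVBN background, sampled at 11 weeks of age. Ercc1 encodes a subunit of a DNA repair endonuclease, and these mice, with a shortened and a null allele, age prematurely. All animals, the controls included, carried this genotype, and no animal with intact repair was compared, so the diets were compared only within repair-deficient mice. The 4 diets, with 4 animals each, were given ad libitum from 8 weeks of age after a random assignment, and were compensated to equal energy. The control diet was AIN93G, a standard purified diet. The high-protein diet held about 194% of the standard protein and 70% of the carbohydrate. The low-protein diet held 70% of the protein and about 112% of the carbohydrate, and the low-fat diet 70% of the fat and about 112% of the carbohydrate. The series title names a decline of transcription with gene length under high protein intake. These comparisons bear on it only through read counts per gene over its exons, which give transcript levels. Transcription along the genes was not measured here.

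RNA polymerase II reads a gene from end to end, and a gene of this length occupies a polymerase for hours. Lesions that block transcription are removed by nucleotide excision repair, in which Ercc1 acts with Xpf, and a long transcribed stretch offers more places for such a block. Most genes of this size owe their length to introns, many encode adhesion, signalling and cytoskeletal proteins best known from neurons and muscle, and several lie at common fragile sites, stretches that break when DNA replication is slowed.

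The 161 genes had a median span of 548 kb, against 24.1 kb for the 12325 other protein-coding genes at this level. Their exons summed to a median of 11.4 kb, against 4.39 kb, and covered a median of 1.96% of the span. Of the 161, 63 spanned 400 to 500 kb and 21 more than 1 Mb, and they lay on 20 chromosomes, with 3 of them on X. Nearest inside the length limit were Bnc2 at 400.2 kb and Dst at 400.4 kb, while Plxdc2 at 399.5 kb and Adk at 396.0 kb fell just outside. Nearest inside the level limit were Kcnip4 at 0.503 CPM and Tenm4 at 0.539 CPM, while Samd12 at 0.488 CPM and Cdh18 at 0.486 CPM fell just outside.

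**Figure D1:**
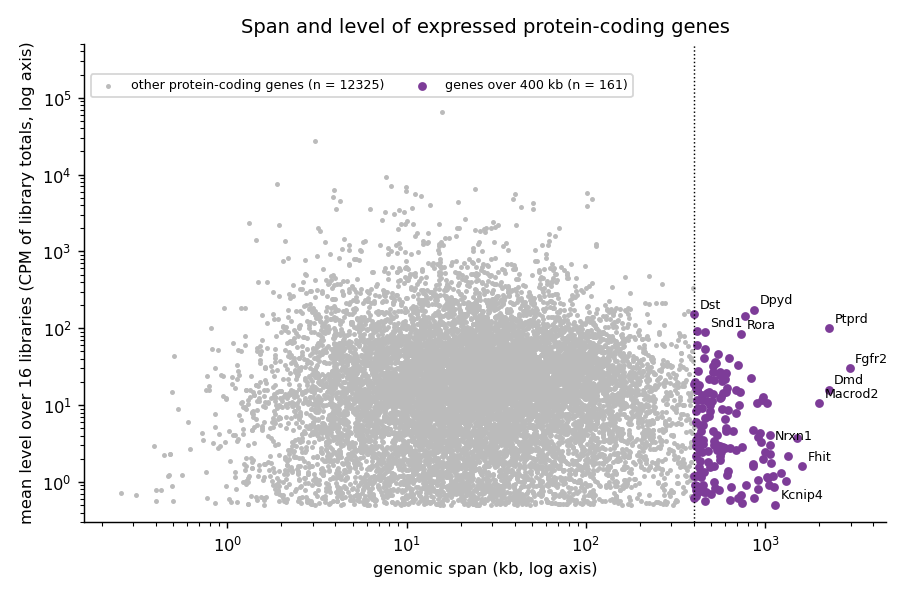
Genomic span in kb (log axis) against the mean level over 16 libraries in CPM (log axis) of 12486 protein-coding genes, with the 161 genes over 400 kb in purple and the limit dotted. The long genes run from 0.503 CPM (Kcnip4) to 174 CPM (Dpyd), with most of them under 10 CPM.

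The longest was Fgfr2, which encodes a fibroblast growth factor receptor, at 2961 kb. It was followed by the receptor phosphatase Ptprd at 2271 kb, dystrophin (Dmd), the linker of the cytoskeleton to the membrane matrix, at 2257 kb, the ADP-ribose hydrolase Macrod2 at 1998 kb and the diadenosine triphosphate hydrolase Fhit at 1612 kb. These spans are those of the deposited annotation, whose outermost transcript can set the length. Of 159 members found in the RefSeq table by symbol, 154 also spanned more than 400 kb there. The other 5 were shorter in RefSeq, among them Fgfr2 at 104 kb, Rasgef1b at 35.5 kb, Sh3gl2 at 183.9 kb and Nfib at 216.6 kb.

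The upstream sequences below are shown for 4 members: Ptprk and Exoc6b, which had the smallest p-values among members between the high-protein and control diets, and Rasgef1b and Fgfr2, whose RefSeq start lies far inside the deposited span. Each line is the 250 bases before the RefSeq transcript start (GRCm38.p6), 5′ to 3′ on the gene's strand, with every CG dinucleotide in capitals. They lie at chr10:28074570-28074819 (plus strand), chr6:85069514-85069763, chr5:99252928-99253177 and chr7:130266809-130267058 (these 3 on the minus strand).

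Ptprk: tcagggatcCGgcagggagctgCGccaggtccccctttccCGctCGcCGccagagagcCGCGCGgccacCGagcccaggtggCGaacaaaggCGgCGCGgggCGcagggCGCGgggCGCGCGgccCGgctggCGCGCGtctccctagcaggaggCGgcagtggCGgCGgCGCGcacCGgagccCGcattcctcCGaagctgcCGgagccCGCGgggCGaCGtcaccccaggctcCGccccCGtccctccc
Exoc6b: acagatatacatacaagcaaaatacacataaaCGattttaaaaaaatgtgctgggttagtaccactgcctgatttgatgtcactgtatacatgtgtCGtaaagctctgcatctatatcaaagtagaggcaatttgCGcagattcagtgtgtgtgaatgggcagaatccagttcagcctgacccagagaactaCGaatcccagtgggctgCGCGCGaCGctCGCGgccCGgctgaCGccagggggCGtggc
Rasgef1b: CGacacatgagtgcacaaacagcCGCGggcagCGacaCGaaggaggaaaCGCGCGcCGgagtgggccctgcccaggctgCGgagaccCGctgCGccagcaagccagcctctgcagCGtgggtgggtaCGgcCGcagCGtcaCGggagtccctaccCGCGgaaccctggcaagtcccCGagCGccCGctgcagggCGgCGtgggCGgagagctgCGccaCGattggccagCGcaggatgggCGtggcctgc
Fgfr2: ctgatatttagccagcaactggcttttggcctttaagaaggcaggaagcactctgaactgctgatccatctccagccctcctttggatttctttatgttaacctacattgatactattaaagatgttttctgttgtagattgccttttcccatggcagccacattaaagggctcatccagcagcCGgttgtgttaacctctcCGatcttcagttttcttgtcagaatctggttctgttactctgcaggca

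The start of Ptprk is rich in CG, with 38 in 250 bases and a GC content of 79.2%, and that of Rasgef1b holds 29, with 72.4% GC. Exoc6b holds 13 CG at 48.8% GC, and the RefSeq start of Fgfr2 only 2 at 44.0%. For Ptprk and Exoc6b the RefSeq transcript start used here coincides with the deposited start. The RefSeq gene of Exoc6b as a whole reaches further upstream, to 85070258. The RefSeq start of Rasgef1b lies 476 kb and that of Fgfr2 2857 kb from the deposited start. In the RefSeq promoter table (300 bases each, of which 250 are upstream), 196 promoters matched 124 members. These had a median of 12 CG and 56.7% GC, against 19 CG and 60.3% for 12525 promoters of the other genes at this level, and 7 CG and 52.7% for all 32851 promoters of the table. CG was counted as the 2 letters C and G in that order, which read the same on both strands.

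Per exon length the long genes were weakly expressed. Their median was 0.379 RPKM (CPM per kb of exon), against 3.29 RPKM for the other protein-coding genes at this level. In CPM the medians were 4.02 and 15.5. A mean of 100 CPM or more was reached by 3 members, one of 10 CPM or more by 57 (those 3 included), 78 lay from 1 to 10 CPM and 26 below 1 CPM. The highest per exon length was Dpyd at 19.6 RPKM, the rate-limiting enzyme of pyrimidine breakdown, followed by Gphn at 10.8, which makes the molybdenum cofactor, Snd1 at 9.15, an RNA-binding nuclease, Oxr1 at 8.43, an oxidation-resistance protein, and Sugct at 6.66, a CoA transferase of glutarate metabolism. Thus the members expressed most per length were enzymes and factors found in many tissues, and the lowest included genes better known from neurons, such as the teneurin Tenm4 at 0.0256 RPKM.

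By known function the members fell into 13 groups, of which transcription factors and chromatin regulators were the largest with 24 genes. The highest of these in CPM was Zbtb20, a zinc-finger repressor that silences alpha-fetoprotein in adult liver, at 145 CPM. It was followed by Nfib at 91.4 CPM, a nuclear factor I member, and Rora at 83.1 CPM, a nuclear receptor of the circadian clock and lipid metabolism. Adhesion, junction and polarity genes numbered 19, led by the polarity scaffold Pard3 at 46.2 CPM. Genes of the extracellular matrix and of guidance numbered 17, led by Reln at 53.8 CPM, a secreted glycoprotein that hepatic stellate cells make. The group of membrane traffic and organelles, with Gphn highest at 40.7 CPM, and kinase and lipid-signalling genes, led by Fgfr2 at 30.3 CPM, numbered 17 each. Gphn was placed there by the function list, although it makes the molybdenum cofactor, as given above.

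Cytoskeletal genes numbered 14, with the plakin Dst at 153 CPM, ankyrin-3 (Ank3) at 40.7 CPM and the nuclear-envelope spectrin Syne1 at 35.6 CPM. Metabolic enzymes numbered 12, with Dpyd at 174 CPM and the carboxypeptidase Cpq at 32.1 CPM. The other groups were 12 regulators of small GTPases, such as Dock4, 9 channels and transporters, such as the zinc transporter Slc39a11, 7 genes of RNA and DNA handling, 4 receptor tyrosine phosphatases, 3 ubiquitin ligases and 6 others. Of the 161, 122 took their group from function lists and 39 were placed by textbook function afterwards. The list of common fragile site genes held 30 genes, of which 22 were tested and 19 were members, Fhit, Dmd, Dpyd and Rora among them. These assignments describe known roles and say nothing of what a gene does in these livers.

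The libraries held 35243594 to 112789127 counts, of which low fat 2 was the deepest and the next 46899907. The members took 0.188% to 0.281% of them, or 1992 to 2981 CPM with library sizes scaled by TMM factors, the scale of all levels per library here. Hepatocyte markers summed to 84607 to 117617 CPM, as the liver label has it, and the 4 lowest of 7 neuron markers averaged under 0.1 CPM, although 2 of that list (Syt1 and Rbfox3) are members. Kidney transcripts, 17 genes of nephron segments such as Umod and Slc12a1, were also present and differed widely between livers. Their sum was 171, 91.9, 5028 and 252 CPM in control 1 to 4, 1.68, 1489, 408 and 833 CPM with high protein, 1206, 1199, 648 and 672 CPM with low protein, and 973, 1597, 2984 and 2673 CPM with low fat. So control 3 held the most and high protein 1 almost none. Bile duct markers also differed, from 33.3 CPM in high protein 1 to 225 CPM in control 3. Control 4 stood apart in another way, with a TMM factor of 0.778 against 0.920 to 1.16 in the other 15 libraries. In such bulk samples, fewer cells of a type and less RNA per cell cannot be told apart. All 16 libraries entered 1 fit, so that an SE or p of any comparison also depends on the spread within the diets it does not compare.

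The 161 genes did not all vary alike. Over the 16 livers the median gene had a standard deviation (SD) of 0.40 log2 units, the same as over the 17833 genes tested, and 13 members exceeded 1 log2 unit. The steadiest 5 were the mitochondrial phenylalanyl-tRNA synthetase Fars2, the ciliary BBSome subunit Bbs9, the polarity gene Pard3, the splicing regulator Celf2 and the carboxypeptidase Cpq. Fars2 was at 17.5, 16.9, 16.7 and 14.0 CPM in control 1 to 4, 16.9, 16.6, 14.4 and 19.7 with high protein, 15.5, 16.9, 15.2 and 18.1 with low protein and 16.5, 16.5, 15.7 and 18.4 with low fat. Its 4 diet ranges overlapped and it lay between 14.0 and 19.7 CPM in all 16 livers.

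The most variable 5 were the ABC transporter Abca13, the endophilin Sh3gl2, Malrd1, the zinc-finger gene Bnc2 and Glis3, a GLI-similar zinc-finger transcription factor. Abca13 was at 1.65, 0.448, 34.2 and 2.58 CPM in control 1 to 4, 0, 7.25, 1.98 and 4.13 with high protein, 9.92, 3.46, 4.61 and 2.82 with low protein and 5.66, 10.8, 17.4 and 18.8 with low fat. It ran from no count in high protein 1, which at that depth allows up to 0.0637 CPM (3 counts, counting error only), to 34.2 CPM in control 3. Glis3, whose loss causes cystic kidneys and neonatal diabetes, was at 0.639, 0.448, 16.7 and 2.18 CPM in control 1 to 4, 0.298, 3.57, 1.41 and 2.16 with high protein, 3.66, 2.29, 2.49 and 1.73 with low protein and 3.21, 5.00, 7.71 and 7.36 with low fat. Both genes were highest in control 3 and lowest in high protein 1, the livers with the most and the least kidney transcripts. Pkhd1, which encodes fibrocystin of kidney and bile duct cilia and was chosen after its values were seen, was at 8.88, 4.79, 34.0 and 2.58 CPM in control 1 to 4, 3.25, 11.3, 5.49 and 6.07 with high protein, 13.6, 8.51, 10.3 and 8.44 with low protein and 12.5, 16.2, 26.4 and 17.8 with low fat. Among controls it was highest in control 3, and among low-fat livers in low fat 3.

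**Figure D2:**
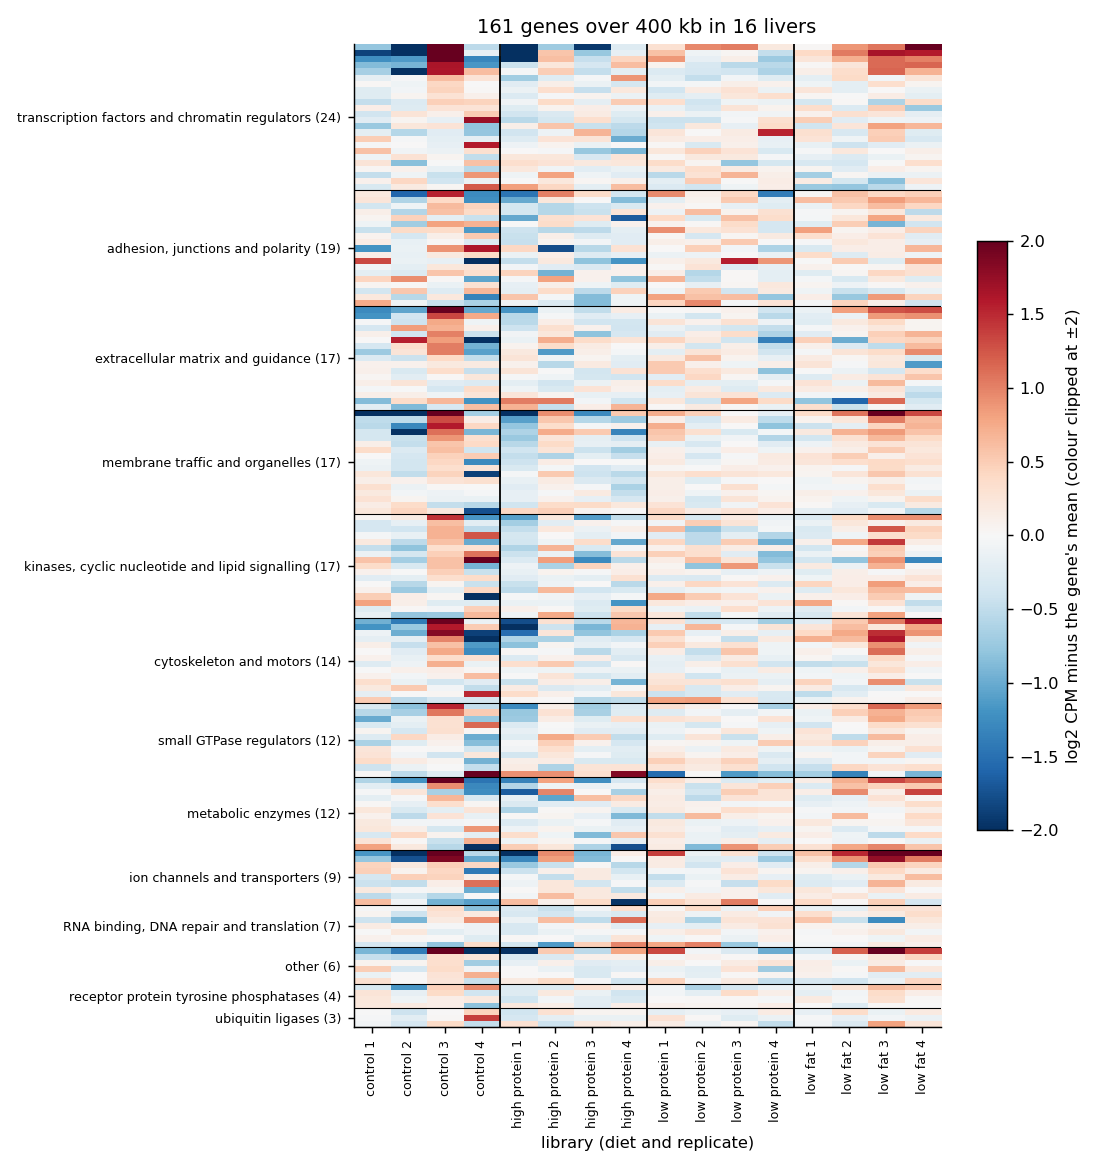
Deviation of log2 CPM of each of the 161 long genes from its own mean (colour, clipped at 2 log2 units either way) in the 16 libraries, with genes in rows grouped by known function and libraries in columns by diet. The strongest colours lie in control 2, 3 and 4, high protein 1 and low fat 3 and 4. Within each group the rows are ordered by control 3 minus high protein 1, largest first. Red in control 3 and blue in high protein 1 at the top of a group therefore follow from that order.

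A principal component analysis of the 161 genes set the same livers apart. The first component held 49.5% of their variance between libraries, with control 3 (0.47) and low fat 3 (0.35) at one end and high protein 1 (-0.51) and control 2 (-0.33) at the other. Among the genes that weighed most on it were Abca13, Sh3gl2, Malrd1, Bnc2, Glis3 and Mecom. The second held 17.2% and set control 4 (0.84) apart, with Rasgef1b among its leading genes. Between control 3 and high protein 1, 124 of the 161 genes (77.0%) were higher in control 3, against 47.9% of all genes tested, and 38 were more than 2-fold higher, which is 23.6% against 13.1% of all genes. These 2 livers differ in diet as well as in kidney transcripts, and with 1 library on each side the count has no replicate check. The part of kidney transcripts in it was not tested.

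Ptprk and Exoc6b led the members in the comparison of the high-protein with the control diet, but no member passed the test. Of the 161 genes, 122 were lower and 39 higher in the fitted fold change with high protein, and the median log2 fold change was -0.17 (interquartile range over genes -0.40 to -0.01). Over all 17833 genes tested the median was -0.06 and 58.3% were lower. edgeR's quasi-likelihood test with Benjamini-Hochberg adjustment called 0 of 161 members and 0% of all genes at 0.05, with a smallest adjusted p of 0.762 among members. At an unadjusted p under 0.05 there were 11 members, 10 of them lower, where all genes gave 6.22%, with 3.74% lower. With both directions together, members so found were therefore about as frequent as among all genes. By direction, 10 of the 11 were lower and 1 higher, where 667 of the 1109 such genes among all tested were lower. Without control 4 there were 17 such members, against 8.79% of all genes, and without control 3 and high protein 1 there were 20, against 12.0%. In 2 members, both lower, the livers of the diets did not overlap, against 1.96% of all genes, with 0.841% lower. DESeq2 likewise called 0 members. In simulated data for this comparison the edgeR steps recovered 3 of 50 genes changed 1.5-fold and 20 of 50 changed 2-fold. The lack of calls therefore does not show that changes of this size were absent. A test of any difference between the 4 diets gave 11 members with an unadjusted p under 0.05, against 6.59% of all genes, and called none (smallest edgeR adjusted p among members 0.695).

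The lower median rested in large part on 1 liver. Without control 3 it was -0.03, with 86 of 161 genes lower and 49.6% of all genes lower. Without control 3 and high protein 1 together it was -0.01, with 83 lower, where 52.3% of all genes were lower. With the kidney level as a covariate it was -0.12, with 103 lower, against 55.5% of all genes. Without control 4 it was -0.19, with 127 lower, against 51.8% of all genes.

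The 4 members with the smallest p were as follows. Ptprk, a receptor-type tyrosine phosphatase engaged in cell contacts, was at 41.7, 33.6, 38.9 and 40.5 CPM in control 1 to 4, 26.9, 34.4, 30.7 and 28.5 with high protein, 35.9, 36.3, 36.4 and 34.7 with low protein and 40.2, 34.6, 44.4 and 36.4 with low fat. The high-protein livers (26.9 to 34.4 CPM) lay below every low-protein and low-fat liver, and 1 of them, high protein 2, lay above control 2. The log2 fold change was -0.36 (SE 0.11), with an edgeR adjusted p of 0.762.

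Exoc6b, a subunit of the exocyst that tethers secretory vesicles, was at 5.37, 4.26, 7.41 and 7.67 CPM in control 1 to 4, 3.87, 3.49, 4.68 and 3.89 with high protein, 5.91, 4.23, 5.26 and 6.11 with low protein and 6.54, 7.54, 5.77 and 6.54 with low fat. Its high-protein livers lay at 3.49 to 4.68 CPM and overlapped the controls at control 2 alone. The log2 fold change was -0.63 (SE 0.20), edgeR adjusted p 0.762. Kcnh7, a voltage-gated potassium channel of the ERG type, was at 2.03, 1.71, 2.09 and 2.00 CPM in control 1 to 4, 0.871, 1.09, 1.52 and 0.998 with high protein, 1.67, 1.12, 1.63 and 1.26 with low protein and 1.62, 0.987, 2.14 and 2.01 with low fat. All 4 controls were above all 4 high-protein livers, with a log2 fold change of -0.81 (SE 0.27) and an edgeR adjusted p of 0.762. Slc9a9, an endosomal sodium-proton exchanger, was at 1.45, 1.71, 1.41 and 2.12 CPM in control 1 to 4, 2.04, 3.26, 2.44 and 2.43 with high protein, 2.04, 2.38, 2.24 and 1.81 with low protein and 2.35, 2.54, 1.91 and 2.38 with low fat. It was the member in this set with the higher level under high protein, at a log2 fold change of 0.60 (SE 0.21), and control 4 overlapped high protein 1.

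**Figure D3:**
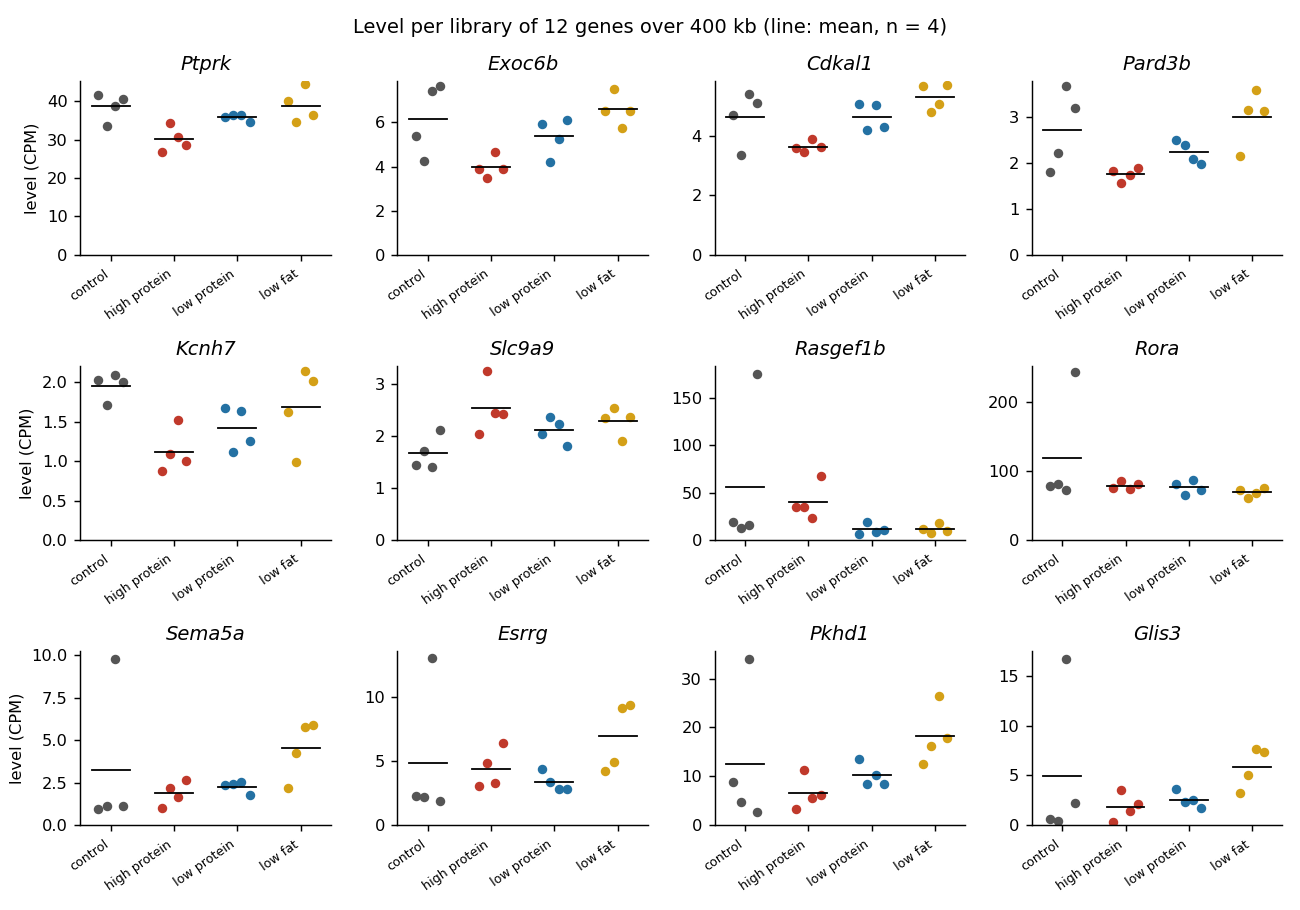
Level in CPM (linear axis from 0) of 12 long genes in each library by diet, with a line at the mean of 4. The high-protein points of Exoc6b, Cdkal1 and Pard3b lie below most others, Rasgef1b and Rora have 1 control liver (control 4) far above the rest at 175 and 242 CPM, and Sema5a, Esrrg, Pkhd1 and Glis3 have control 3 highest.

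With all libraries, most members of most function groups were lower in the fit of high protein against control, with none of their genes called. Of 19 adhesion genes, 18 were lower, at a median log2 fold change of -0.25. Of 14 cytoskeletal genes, 13 were lower, at a median of -0.21. These 2 groups thus had 1 gene each that was higher. Membrane traffic had 12 of 17 lower (-0.29) and matrix and guidance 13 of 17 (-0.24). Transcription and chromatin had 15 of 24 lower (-0.14), and kinases and lipid signalling had 13 of 17 (-0.05). Small GTPase regulators had 8 of 12 lower (-0.09), metabolic enzymes 10 of 12 (-0.19), channels and transporters 6 of 9 (-0.28), receptor phosphatases 3 of 4 (-0.19) and ubiquitin ligases 2 of 3 (-0.02). Genes of RNA and DNA handling were the most evenly split, with 4 of 7 lower, and 5 of the 6 other genes were lower. The full lists of these functions, which hold members and genes outside the rule, had medians below 0 as well with all libraries. Of the genes tested, members were 14 of 37 for adhesion and 4 of 16 for receptor phosphatases. They were 7 of 53 for metabolic enzymes and 19 of 22 for common fragile site genes. The full lists are therefore not independent of the counts above. All adhesion genes tested had a median of -0.14 (26 of 37 lower), all receptor phosphatases -0.14 (11 of 16), all metabolic enzymes of the list -0.20 (37 of 53) and common fragile site genes -0.20 (16 of 22). Each of these counts stands beside the 58.3% of all genes that were lower. Without control 3, where 86 of the 161 members and 49.6% of all genes were lower, most of these groups were more evenly split, in an alternative chosen after seeing the data. Adhesion then had 14 of 19 lower (-0.20), the cytoskeleton 8 of 14 (-0.07), matrix and guidance 9 of 17 (-0.08) and membrane traffic 10 of 17 (-0.08). Metabolic enzymes had 6 of 12 lower (-0.03), small GTPase regulators 6 of 12 (-0.01) and receptor phosphatases 3 of 4 (-0.04). The medians of transcription and chromatin (0.04, 12 of 24 lower), kinases and lipid signalling (0.07, 8 of 17), channels and transporters (0.11, 4 of 9) and ubiquitin ligases (0.01, 1 of 3) turned above 0 without that liver.

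High protein against low fat gave the median farthest from 0 among the 6 comparisons, although no member passed here either (0 of 161, 0% of all genes, smallest edgeR adjusted p among members 0.384). The median log2 fold change of high protein against low fat was -0.23, with 124 lower and 37 higher, where all genes had -0.02 and 53.0% lower. Unadjusted p under 0.05 was reached by 18 members, 16 of them lower, against 9.08% of all genes in either direction and 4.41% lower. The livers of the diets did not overlap in 18 members, 16 of them lower, against 8.22% of all genes, with 3.99% lower. Leaving out 1 library at a time kept the median between -0.28 and -0.16. Without control 3, which this comparison does not use for the fold change, 28 members had such a p, against 12.5% of all genes, and without low fat 3 there were 12, against 5.83%. With the kidney level as a covariate it was -0.11, with 110 lower, and the kidney sum was 973 to 2984 CPM with low fat and 1.68 to 1489 CPM with high protein. The part of kidney transcripts in the separation was not tested beyond these values. DESeq2 called 0 members.

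The 4 members with the smallest p are given first. Exoc6b had a log2 fold change of -0.73 (SE 0.20, edgeR adjusted p 0.384), with every low-fat liver (5.77 to 7.54 CPM) above every high-protein liver (3.49 to 4.68 CPM). Cdkal1, a methylthiotransferase that modifies lysine tRNA, was at 4.70, 3.36, 5.43 and 5.13 CPM in control 1 to 4, 3.59, 3.47, 3.90 and 3.62 with high protein, 5.08, 4.21, 5.04 and 4.30 with low protein and 5.68, 4.81, 5.10 and 5.74 with low fat. Its high-protein livers were below all low-fat livers and all low-protein livers, at a log2 fold change against low fat of -0.55 (SE 0.16, edgeR adjusted p 0.411). Pard3b, a polarity protein akin to Pard3, was at 1.80, 2.21, 3.67 and 3.19 CPM in control 1 to 4, 1.83, 1.56, 1.73 and 1.89 with high protein, 2.49, 2.38, 2.08 and 1.97 with low protein and 2.14, 3.15, 3.58 and 3.12 with low fat. All low-fat livers lay above all high-protein livers, at a log2 fold change of -0.78 (SE 0.23, edgeR adjusted p 0.414).

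Zfp385b, a zinc-finger gene, was at 12.7, 17.9, 16.2 and 37.0 CPM in control 1 to 4, 28.0, 21.0, 13.9 and 24.3 with high protein, 13.1, 12.0, 14.8 and 17.3 with low protein and 9.39, 9.18, 10.8 and 14.8 with low fat. It went the other way, higher with high protein at a log2 fold change of 0.98 (SE 0.30, edgeR adjusted p 0.414), and high protein 3 lay below low fat 4. Ptprk also separated the diets, with a log2 fold change of -0.37 (SE 0.11). Mast4, a microtubule-associated kinase, was at 4.41, 2.94, 4.55 and 3.22 CPM in control 1 to 4, 3.19, 4.08, 4.38 and 2.99 with high protein, 4.68, 5.86, 5.26 and 3.59 with low protein and 5.92, 4.78, 7.80 and 4.79 with low fat, and its low-fat livers did not overlap its high-protein livers.

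Rasgef1b, a guanine nucleotide exchange factor of the Ras family, had the largest log2 fold change of the 161 genes with low protein and with low fat against control, and it rested on 1 liver. It was at 19.2, 13.1, 15.8 and 175 CPM in control 1 to 4, 35.1, 35.2, 23.4 and 67.6 with high protein, 6.38, 19.0, 8.47 and 10.4 with low protein and 11.7, 7.38, 18.0 and 9.95 with low fat. Control 4 was far above the other controls (13.1 to 19.2 CPM), and the high-protein livers were above all low-protein and low-fat livers. The log2 fold change was -2.33 (SE 0.73) for low protein against control and -2.25 (SE 0.72) for low fat against control, and without control 4 these were -0.55 and -0.48. High protein against low protein was 1.86 (SE 0.71, edgeR adjusted p 0.944). That fold change compares no control livers, but its SE and p also take in the spread among them, control 4 included. As given above, RefSeq places this gene in 35.5 kb.

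Plcb1 and Dst, named between the low-protein and control diets, were also highest in control 4. Low protein against control had a member median of -0.02 with 90 lower, where all genes had -0.03 and 54.4% lower. The test called 0 of 161 (0% of all genes, smallest edgeR adjusted p 0.682), and 7 members had an unadjusted p under 0.05 against 7.08% of all genes. In 4 members the livers did not overlap, against 2.48%. Plcb1, a phospholipase C, was at 7.26, 6.70, 12.1 and 18.0 CPM in control 1 to 4, 5.82, 7.46, 6.52 and 7.20 with high protein, 6.33, 5.20, 6.46 and 4.93 with low protein and 6.18, 7.04, 9.43 and 9.71 with low fat. Its log2 fold change of -0.94 (SE 0.27) was -0.62 without control 4. Dst, the plakin that links filament systems, was at 130, 146, 152 and 417 CPM in control 1 to 4, 191, 158, 141 and 173 with high protein, 109, 118, 126 and 120 with low protein and 104, 128, 147 and 147 with low fat. Its -0.83 (SE 0.29) was -0.29 without that liver, which held 417 CPM. Atxn1, a corepressor-binding protein, was at 9.26, 7.17, 9.04 and 6.23 CPM in control 1 to 4, 8.16, 9.95, 17.0 and 7.15 with high protein, 12.5, 10.7, 11.9 and 30.5 with low protein and 13.3, 8.49, 14.8 and 8.92 with low fat. Its 1.05 (SE 0.35) was 0.55 without low protein 4, the liver at 30.5 CPM. The sign of the median turned without control 3, to 0.10 with 57 lower, and 17 members then had an unadjusted p under 0.05, against 15.5% of all genes.

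Against control, the low-fat livers had a member median of 0.06 with 61 lower and 100 higher, where all genes had -0.02, with 52.4% lower and 47.6% higher. The test called 0 of 161 members and 0% of all genes (smallest edgeR adjusted p 0.530), and 10 members had an unadjusted p under 0.05 against 9.22% of all genes. With the kidney level as a covariate, 81 members were lower and 80 higher. Without control 3 the median was 0.15 with 49 lower, and 33 members had an unadjusted p under 0.05, against 20.4% of all genes. Without control 4 it was 0.01, with 75 lower. In 3 members the livers did not overlap, against 2.59%. Without control 3, the same edgeR test called 2 of 161 members, and 109 of the 17973 genes then tested. The 2 members were Esrrg (log2 fold change 1.75, edgeR adjusted p 0.0427) and Sema5a (2.10, 0.0427). Esrrg, an orphan nuclear receptor of mitochondrial metabolism, was at 2.26, 2.16, 13.0 and 1.84 CPM in control 1 to 4, 3.08, 4.84, 3.30 and 6.39 with high protein, 4.37, 3.33, 2.85 and 2.85 with low protein and 4.25, 4.92, 9.13 and 9.37 with low fat. Sema5a, a membrane-bound semaphorin that guides axons, was at 0.958, 1.12, 9.78 and 1.14 CPM in control 1 to 4, 1.02, 2.17, 1.68 and 2.67 with high protein, 2.35, 2.40, 2.51 and 1.78 with low protein and 2.16, 4.22, 5.75 and 5.90 with low fat. In both, control 3 was the highest of all 16 livers and the other 3 controls lay below the low-fat livers. With control 3 and high protein 1 both out, 571 of the 17871 genes then tested were called, and 11 of the 161 members. They included Pkhd1, Esrrg, Malrd1, Macrod2, Mecom, Sh3gl2, Arhgap24, Abca13, Sema5a and Glis3, and all 11 were higher with low fat, at log2 fold changes of 1.19 (Arhgap24) to 3.40 (Malrd1). Without control 3 the kidney sum was 91.9 to 252 CPM in control and 973 to 2984 CPM with low fat, and its part in these calls was not tested. Rora was at 78.4, 80.8, 71.8 and 242 CPM in control 1 to 4, 74.9, 84.5, 73.1 and 80.2 with high protein, 81.3, 65.0, 86.1 and 72.2 with low protein and 72.5, 60.1, 68.5 and 74.4 with low fat. Its log2 fold change of -0.78 (SE 0.30) was -0.19 without control 4, and Zfp385b went from -0.92 (SE 0.30) to -0.53.

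The fold changes of both remaining comparisons compare no control livers. High protein against low protein had a median of -0.14, with 114 of 161 lower, against -0.02 and 52.5% for all genes. The test called 0 members (0% of all genes, smallest edgeR adjusted p 0.944). An unadjusted p under 0.05 was found in 10 members, 9 of them lower, against 5.17% of all genes, with 2.83% lower. That number was 16 without control 4, against 11.1% of all genes, and 4 without high protein 1, against 4.06%. Without high protein 1 the median was -0.07 with 104 lower. With the kidney level as a covariate it was -0.05 with 90 lower, where 51.0% of all genes were lower. The livers of 10 members did not overlap, 8 of them lower, against 6.61% of all genes, with 3.47% lower. Nav2, a neuron navigator that guides growth of neurites, was at 44.5, 21.8, 24.9 and 24.5 CPM in control 1 to 4, 32.0, 31.5, 21.1 and 22.0 with high protein, 54.7, 55.9, 38.8 and 25.0 with low protein and 28.3, 32.8, 31.7 and 34.6 with low fat. The log2 fold change was -0.71 (SE 0.26), with low protein 4 among the high-protein values. Tenm3, a teneurin adhesion receptor, was at 13.7, 7.71, 6.02 and 5.25 CPM in control 1 to 4, 7.72, 6.75, 4.46 and 7.74 with high protein, 11.1, 16.0, 8.09 and 9.95 with low protein and 7.98, 11.2, 8.89 and 6.22 with low fat. All low-protein livers lay above all high-protein livers, at -0.76 (SE 0.30). Sox5, a SoxD transcription factor, was at 17.2, 10.8, 10.5 and 14.2 CPM in control 1 to 4, 11.5, 11.2, 6.71 and 6.07 with high protein, 13.2, 15.7, 13.8 and 9.26 with low protein and 11.2, 13.1, 11.4 and 12.4 with low fat and gave -0.55 (SE 0.23). Its low-protein livers (9.26 to 15.7 CPM) overlapped the high-protein ones (6.07 to 11.5 CPM).

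Low fat against low protein had a median of 0.10, with 107 of 161 higher, against 0.00 for all genes, of which 50.4% were higher and 49.6% lower. The test called 0 members (0% of all genes, smallest edgeR adjusted p 1.00). No member had an unadjusted p under 0.05 with all libraries, against 2.38% of all genes. Without control 3 there were 9 such members, against 4.20%, and without control 3 and high protein 1 there were 12, against 5.24%, although neither liver enters the fold change. The livers of 6 members did not overlap, against 4.49% of all genes. Without low fat 3 the median was 0.04, with 94 higher, and with the kidney level as a covariate it was 0.06, with 97 higher. Among those with the smallest p were Esrrg (log2 fold change 1.04), Auts2, a Polycomb-associated regulator (1.08), and Etl4 (0.42). Auts2 was at 0.610, 0.196, 3.14 and 1.53 CPM in control 1 to 4, 0.978, 1.40, 0.704 and 0.863 with high protein, 0.811, 0.771, 0.746 and 0.630 with low protein and 1.07, 1.27, 2.28 and 1.64 with low fat. Low fat 3 was its highest low-fat liver.

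Across all lengths, class medians of the log2 fold change went down or up with span in several comparisons, of the high-protein diet and of others. High protein against low fat gave medians of 0.06, 0.00, -0.05, -0.10, -0.20 and -0.23 for genes spanning under 10, 10 to 30, 30 to 100, 100 to 200, 200 to 400 and over 400 kb. High protein against low protein gave 0.04, 0.00, -0.03, -0.06, -0.09 and -0.14. High protein against control gave 0.04, -0.05, -0.13, -0.15, -0.19 and -0.17, so that the 161 genes were no lower than the class below them. Low fat against low protein went the other way, at -0.03, 0.00, 0.02, 0.04, 0.08 and 0.10. Low protein against control gave 0.02, -0.04, -0.08, -0.10, -0.11 and -0.02, so that its longest class lay above the class just shorter. Low fat against control gave 0.00, -0.04, -0.04, -0.02, 0.03 and 0.06. The 3 comparisons against control share the same 4 control livers, so they are not independent of each other, and the high-protein livers are likewise shared among the comparisons that use them. No test of the grading over classes was run, since genes are not replicates. The class medians are given for all 16 libraries only, and single livers differed widely. For genes of 200 to 400 kb the median deviation was -0.17 in control 2 and high protein 1, 0.21 in control 3 and 0.25 in low fat 3.

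**Figure D4:**
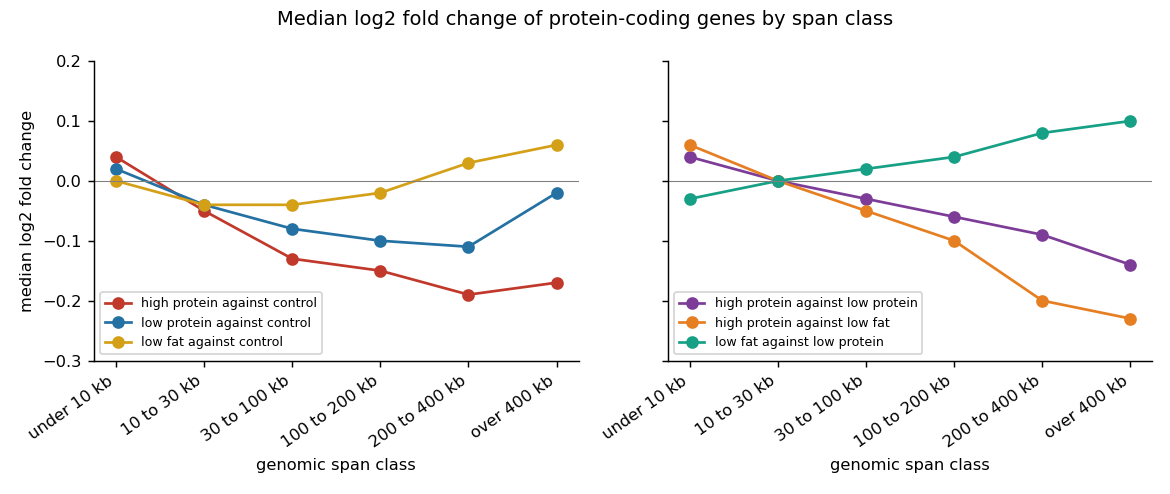
Median log2 fold change of protein-coding genes in 6 classes of genomic span (kb), in the comparisons with control (left) and between the altered diets (right). At over 400 kb the high-protein diet gives -0.17 against control, -0.14 against low protein and -0.23 against low fat, and low fat against low protein gives 0.10.

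Per liver, the median deviation of the 161 genes from their own means was -0.03, -0.15, 0.29 and -0.12 log2 units in control 1 to 4, -0.23, 0.09, -0.16 and -0.16 with high protein, 0.11, -0.02, 0.08 and -0.09 with low protein, and -0.01, 0.04, 0.28 and 0.17 with low fat. The high-protein livers were not uniform, since high protein 2 lay above 3 of the controls, and the controls spanned the widest range of any diet. All genes had a median within 0.03 of 0 in every library. Control 3 held the highest level of 42 of the 161 genes (26.1%), against 11.5% of all genes, and low fat 3 of 31 (19.3%), against 6.20%. High protein 1 held the lowest level of 30 (18.6%), against 6.46%. Control 4 held the lowest level of more members, 40 (24.8%), but also of 26.5% of all genes. It held the highest level of 30 (18.6%), against 29.1% of all genes.

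**Figure D5:**
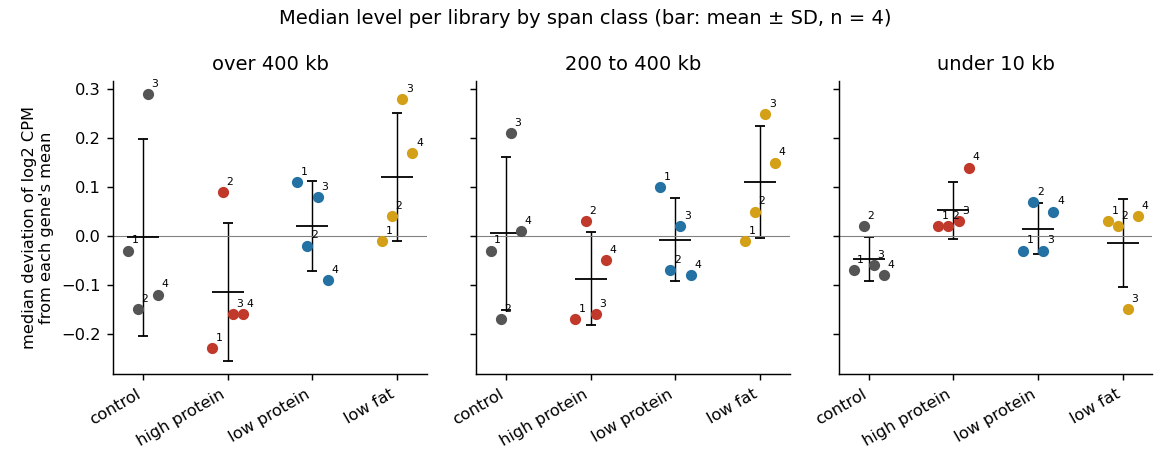
Median deviation of log2 CPM from each gene's mean in each library, for genes over 400 kb, of 200 to 400 kb and under 10 kb, with replicate numbers beside the points and bars at the mean with the SD (n = 4). For genes over 400 kb, control 3 (0.29) and low fat 3 (0.28) are the highest and high protein 1 (-0.23) the lowest, and the diets overlap.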

How the data were processed

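RNA of 16 mouse livers was sequenced. As deposited by the authors, the data are raw read counts for each gene and library (whole numbers), in a single table that also gives exon positions and the exon length of each gene in bases. The submitters' processing notes name Trimmomatic 0.39, STAR 2.7.0f, featureCounts from Subread 1.6.4, edgeR 3.32.1 and build GRCm38.p6. How they were set, whether counting used strand, and which annotation release was taken is not given in the sources used here, so reads of a gene and of one it overlaps on the other strand cannot be told apart. Exons of 59 members overlapped a gene on the opposite strand and those of 11 a gene on the same strand (67 in all).

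Groups and replicate numbers were taken from the sample titles. Gene identifiers with version were matched to GENCODE M21 (53861 of 54752, all at the same start and end). Span was the largest exon end minus the smallest start plus 1. All 161 members passed filterByExpr with 17833 genes in all. In edgeR 4.0.16 (R 4.3.3) TMM scaling and a single quasi-likelihood fit of all 16 libraries with a mean for each of 4 diets left 12 residual degrees of freedom. Each of 6 diet pairs was a two-sided contrast, called at an adjusted p of 0.05 (Benjamini-Hochberg, all genes). Deviations used log2 CPM with a prior count of 2. Litters and cages of the animals are not named in the labels, and p-values then reflect only how these samples vary. Replicates differed beyond sampling noise: in each pair, chi-square divided by its degrees of freedom was at least 44.8.

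The members, function lists and tests were chosen with earlier results of these data known. Genes were named by a rule: the 5 longest, the 5 highest in RPKM, the 2 on each side of each limit, up to 3 highest in each function list, the 4 with the smallest p in each comparison, and the 5 with the smallest and the 5 with the largest SD. Not every gene so chosen is reported here. Pkhd1, Mecom, Sema5a and the members called only under an alternative were chosen after their values were seen. The alternatives were RLE factors, DESeq2 1.42.0, no low-count filter, the compared diets alone, a replicate block, the summed kidney level as a covariate, other limits of span and level, and leaving out each library. The steps were tested on simulated data. Sequences are from RefSeq (GRCm38.p6).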

Additional observations from a re-analysis of the deposited data

Results flagged for a closer look

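In 252 sets of 4 livers (63 long genes in 4 diets), 18 held 1 liver whose log2 level lay far from the other 3, its gap to the nearest being a larger share of the set's range than Dixon's test allows. Chance alone gives about 1 in 20 sets, or 12.6. The genes examined were in part chosen by their SD or p in these data, and Mecom and Sema5a after their values were seen. Setting 18 beside 12.6 is therefore no test of an excess.

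Control 4 was the liver in 4 of these: Dst was at 417 CPM there, Rora at 242 CPM, Rasgef1b at 175 CPM and Ptprd at 54.9 CPM, the last below the other controls and the others above them. Control 3, the liver with the most kidney transcripts, was the one in 4 more, all high: Ank3 at 64.1 CPM, Esrrg at 13.0 CPM, Sema5a at 9.78 CPM and Mecom, a transcription regulator, at 8.85 CPM. Control 1 was high for Cpq at 36.4 CPM.

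Among high-protein livers, replicate 4 was low for the kinase Camk1d at 11.5 CPM and high for Sugct at 25.3 CPM, and replicate 3 was low for Nfib at 71.8 CPM. Among low-protein livers, replicate 4 was high for Atxn1 at 30.5 CPM and low for Syne1 at 29.7 CPM, replicate 3 was high for Fgfr2 at 38.1 CPM and replicate 2 was low for Fhit at 1.06 CPM. Among low-fat livers, replicate 2, the deepest library, was low for Ptprd at 79.9 CPM, and replicate 3 was high for Vps13b, a vacuolar sorting protein, at 33.6 CPM.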

How the results depend on the processing

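Between the low-fat and control diets the test called 0 long genes, and 0 to 2 with 1 library left out. The 2 were called without control 3, when 109 of the 17973 genes tested were called. Leaving out control 3 and high protein 1, the livers with the most and the least kidney transcripts, gave 11, an alternative chosen after seeing the data, as was the RefSeq span limit. In the other 5 comparisons no alternative called a long gene. DESeq2 called 0 long genes throughout but 81 of all genes between high protein and low fat, 23 between high and low protein, 10 between low protein and control, 4 between low fat and control and 1 between high protein and control.

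With 1 library left out, the median log2 fold change of the long genes ran from -0.24 to -0.03 (high protein against control), -0.10 to 0.10 (low protein against control), 0.01 to 0.15 (low fat against control), -0.20 to -0.07 (high against low protein), -0.28 to -0.16 (high protein against low fat) and 0.04 to 0.13 (low fat against low protein). The cause was not tested. Limits of 300 or 500 kb gave -0.18 and -0.17 for high protein against control, and the 154 genes also over 400 kb in RefSeq -0.17. Members with few counts are the least certain, since 17 had under 10 counts in some library.

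With the replicate number as a block (replicate block), 0 long genes were called in each comparison and the median of high protein against control was -0.14. Same-numbered livers deviated together with correlations of -0.20 to 0.30, over 0.1 in 8 of 24 pairs. Of 16 libraries, 6 correlated best with their own number. These correlations cannot tell whether animals of the same number shared a litter, cage or batch, and the main fit used no pairing.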
